A study of Mus musculus with 12 samples.

Results

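Fibronectin, basement membrane linkers and matricellular proteins are followed here through 10 genes: Fn1, Nid1, Nid2, Hspg2, Agrn, Dag1, Sparc, Tnc, Postn and Hmcn1. They were listed by name as matrix genes that encode neither a collagen nor a laminin, and all 10 were among the 19938 genes measured. Where a gene had several probesets, the brightest on average stood for it. The study hybridised 12 Affymetrix arrays, 3 in each of 4 groups, with RNA of sorted mammary cells from female mice aged 10 to 14 weeks. The Wnt4-deleted mice were MMTV::Cre+.Wnt4fl/fl.mT/mG and the WT mice were MMTV::Cre+.Wnt4wt/wt.mT/mG, so both genotypes carried the Cre transgene and the mT/mG reporter. MMTV-Cre is active in mammary epithelium, and it deletes the floxed gene and turns on GFP only in cells where Cre acted. Lineage-depleted GFP+ cells were split into a CD24 low fraction, which the labels call myoepithelial, and a CD24 high fraction, which they call luminal. The labels speak of glands in one place and of grafts in another, and which it was is not settled here.

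The basement membrane is a thin sheet of laminin and collagen IV networks on which the mammary epithelium rests. Nidogens and the heparan sulfate proteoglycans perlecan and agrin hold the networks together, and dystroglycan on the cell surface binds laminin, perlecan and agrin. Fibronectin is assembled into fibrils by integrins, while SPARC, tenascin-C and periostin are matricellular proteins that alter how cells adhere to matrix. In the mammary duct, myoepithelial cells lie between the luminal cells and the basement membrane.

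Array values are log2 RMA values and are given in the order of the array numbers in the labels: 3, 11 and 15 for Wnt4-deleted CD24 low, 1, 9 and 13 for WT CD24 low, 4, 12 and 16 for Wnt4-deleted CD24 high, and 2, 10 and 14 for WT CD24 high. The labels do not tie arrays to the 3 independent experiments, so the p-values measure the spread between these arrays. Wnt4 itself had values of 6.11, 6.46 and 6.78 on the Wnt4-deleted CD24 high arrays, against 7.42, 7.92 and 7.62 on the WT CD24 high arrays. These do not overlap, as was so for 7% of all genes there. The difference of -1.20 did not pass the test over all genes (limma, adjusted p = 0.416). In CD24 low cells Wnt4 differed by -0.145 with overlapping arrays. Myoepithelial markers averaged 10.72 to 11.20 per array in CD24 low cells and 6.17 to 7.10 in CD24 high cells over 10 genes. Luminal markers averaged 7.995 to 8.65 in CD24 low cells and 10.63 to 10.999 in CD24 high cells over 12 genes, so the fractions carry the markers their labels name, with luminal transcripts still measured in CD24 low cells. Skeletal muscle, endothelial and fibroblast markers differed widely among the CD24 low arrays, and their values are given further below.

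Most of these genes were higher in the CD24 low fraction in both genotypes. In Wnt4-deleted cells 8 of 10 passed the test (limma, adjusted p under 0.05 over all genes), all 8 higher in CD24 low, where 16.4% of all genes passed in either direction and 8.22% passed with the higher value in CD24 low. In WT cells 9 of 10 passed, again all higher in CD24 low, against 16.1% of all genes in either direction and 8.21% in that direction. The 10 genes were chosen with earlier results of these data known, so the counts are a description and no independent test against these shares. The median difference, CD24 low minus CD24 high, was 2.87 on the log2 scale over the 10 genes in Wnt4-deleted cells and 2.50 in WT cells, against medians over all genes of -0.01 and -0.02. The CD24 low and CD24 high arrays did not overlap for 8 of 10 genes in Wnt4-deleted cells (29.3% of all genes) and for 10 of 10 in WT cells (32.8% of all genes). Since each fraction is a bulk sample, fewer cells of a type and less RNA per cell cannot be told apart.

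**Figure D1:**
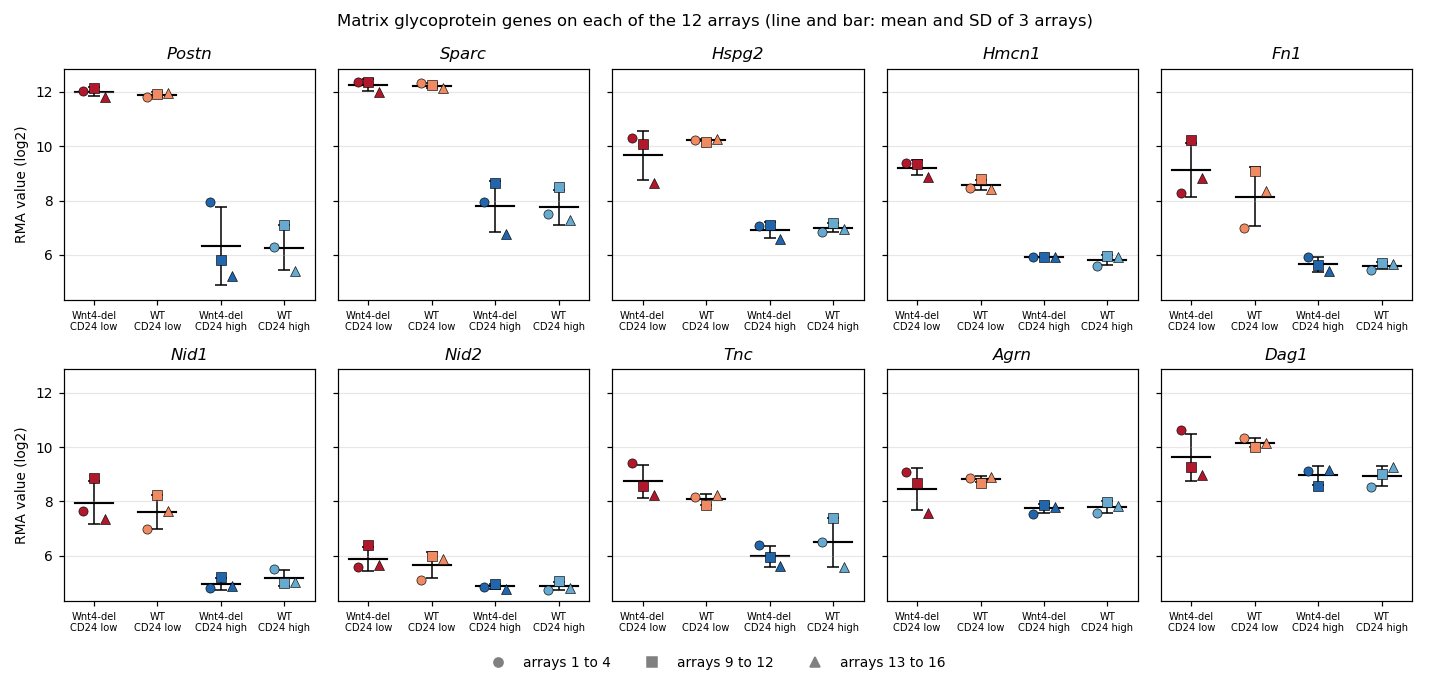
RMA value (log2) of each of the 10 genes on the 12 arrays, in 4 groups of 3 arrays, with symbols for arrays 1 to 4, 9 to 12 and 13 to 16, and lines and bars for the mean and SD. Postn and Sparc stand near 12 on all CD24 low arrays and scatter widely on the CD24 high arrays, while Fn1 and Nid1 scatter in CD24 low and Nid2, Agrn and Dag1 have the smallest fraction differences.

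The matricellular genes Postn and Sparc had the largest differences between the fractions. Postn, which encodes periostin, a protein that binds collagen and integrins, had 12.02, 12.15 and 11.82 on the Wnt4-deleted CD24 low arrays, against 7.95, 5.82 and 5.23 on the Wnt4-deleted CD24 high arrays. In WT cells Postn had 11.80, 11.91 and 11.97 in CD24 low and 6.29, 7.10 and 5.42 in CD24 high. The CD24 low values span 0.35 over 6 arrays and the CD24 high values 2.72, with array 4 highest. The Postn difference was 5.67 ± 0.59 (SE) in Wnt4-deleted cells, or 50.8-fold (adjusted p = 6.13e-05), and 5.62 ± 0.59 in WT cells, or 49.3-fold (adjusted p = 6.52e-05).

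Sparc encodes SPARC, a collagen-binding protein also called osteonectin. Its values were 12.37, 12.38 and 11.99 in Wnt4-deleted CD24 low cells and 7.95, 8.63 and 6.77 in Wnt4-deleted CD24 high cells. In WT cells they were 12.32, 12.24 and 12.13 in CD24 low and 7.52, 8.49 and 7.27 in CD24 high. All 6 CD24 low arrays lie within 0.39 of each other, and no CD24 high array comes near them. The difference was 22.0-fold in Wnt4-deleted cells (4.46 ± 0.41, adjusted p = 2.68e-05) and 22.2-fold in WT cells (4.47 ± 0.41, adjusted p = 2.74e-05).

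The bases before the start site of these 2 genes are shown because they carried the largest differences of the 10. The sequences are those of RefSeq on GRCm38.p6, 250 bases that end just before the transcript start, given 5′ to 3′ on the gene's strand. Such a stretch was matched for 8 of the 10 genes, and Fn1 and Nid2 are named only. Each was searched on both strands for CCGCCC (the GC box), TATAAA (the TATA box), CATTCC (bound by TEAD factors), TGANTCA (bound by AP-1) and CTTTGA (bound by TCF/LEF factors), with matches in capitals. The Postn stretch is chr3:54359017-54359266 on the plus strand and the Sparc stretch is chr11:55420081-55420330 on the minus strand.
Postn: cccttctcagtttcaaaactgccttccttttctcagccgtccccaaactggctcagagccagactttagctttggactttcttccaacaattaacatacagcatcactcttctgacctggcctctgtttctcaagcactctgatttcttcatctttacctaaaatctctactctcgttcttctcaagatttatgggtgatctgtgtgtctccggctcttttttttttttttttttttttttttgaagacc
Sparc: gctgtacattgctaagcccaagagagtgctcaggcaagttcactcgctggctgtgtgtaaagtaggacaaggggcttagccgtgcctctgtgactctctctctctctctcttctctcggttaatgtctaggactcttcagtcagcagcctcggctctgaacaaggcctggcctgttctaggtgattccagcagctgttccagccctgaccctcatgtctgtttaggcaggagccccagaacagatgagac
None of the 5 motifs is in either stretch, so no letter is in capitals, and nothing about the factors follows from that. The Postn stretch holds 40.4% G and C with 3 CpG pairs, and the Sparc stretch 54.0% with 4, against a median of 52.4% over the 32841 promoters of the table.

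Tnc encodes tenascin-C, a large glycoprotein that can weaken adhesion to fibronectin. It had 9.43, 8.55 and 8.24 on the Wnt4-deleted CD24 low arrays and 6.38, 5.95 and 5.62 on the Wnt4-deleted CD24 high arrays. In WT cells it had 8.16, 7.86 and 8.22 in CD24 low and 6.51, 7.39 and 5.59 in CD24 high. The fractions do not overlap in either genotype, although WT CD24 high array 10 comes close to the lowest CD24 low array, array 9. The difference was 2.76 ± 0.42 in Wnt4-deleted cells (6.76-fold, adjusted p = 0.000889) and 1.59 ± 0.42 in WT cells (3-fold, adjusted p = 0.0235). The WT call was lost when array 1, 2, 13 or 14 was left out, with adjusted p from 0.0565 to 0.0804, and with arrays 9 to 16 only (1.55, adjusted p = 0.0804) or arrays 1 to 12 only (1.06, adjusted p = 0.194).

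Fibronectin, from Fn1, was higher in CD24 low cells and was the most variable of the 10 genes within that fraction. Fn1 had 8.28, 10.24 and 8.85 in Wnt4-deleted CD24 low cells and 5.94, 5.64 and 5.39 in Wnt4-deleted CD24 high cells. In WT cells it had 6.98, 9.10 and 8.36 in CD24 low and 5.44, 5.69 and 5.65 in CD24 high. Array 11 was the highest and array 1 the lowest of the CD24 low arrays, 3.27 apart, while the 6 CD24 high arrays span 0.55. The Fn1 difference was 3.47 ± 0.53 in Wnt4-deleted cells (11.1-fold, adjusted p = 0.000977) and 2.55 ± 0.53 in WT cells (5.85-fold, adjusted p = 0.00679). With arrays 1 to 12 only, an alternative chosen after seeing the data, the Fn1 differences were 3.47 (adjusted p = 0.0506) and 2.47 (adjusted p = 0.142) and neither passed.

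The nidogens, which link laminin to collagen IV, showed the same order of fractions with unlike sizes. Nid2 was dim, with a mean of 5.32 over all arrays, under the 40th percentile level of all genes (5.46). RMA compresses differences of dim probesets, so the sizes for Nid1 and Nid2 are not directly comparable. Nid1 had 7.64, 8.85 and 7.35 in Wnt4-deleted CD24 low cells against 4.81, 5.20 and 4.87 in Wnt4-deleted CD24 high cells. In WT cells Nid1 had 6.99, 8.24 and 7.63 in CD24 low against 5.52, 4.997 and 5.02 in CD24 high. The fractions are well apart on every array, and Nid1 was 7.93-fold higher in CD24 low in Wnt4-deleted cells (2.99 ± 0.38, adjusted p = 0.00029) and 5.44-fold higher in WT cells (2.44 ± 0.38, adjusted p = 0.00116). Nid2 had 5.60, 6.38 and 5.65 in Wnt4-deleted CD24 low cells against 4.85, 4.97 and 4.79 in Wnt4-deleted CD24 high cells, a difference of 1.01 ± 0.25 that passed (adjusted p = 0.0172). In WT cells Nid2 had 5.11, 6.002 and 5.86 in CD24 low against 4.75, 5.05 and 4.83 in CD24 high, and the difference of 0.78 ± 0.25 did not pass (adjusted p = 0.0569), although the arrays do not overlap. It passed with the array sets as a fixed block (adjusted p = 0.0158) or a random block (adjusted p = 0.0433), and without array 1 (1.05, adjusted p = 0.0108) or array 11 (adjusted p = 0.0273). Leaving out array 11 (adjusted p = 0.0597) or array 16 (adjusted p = 0.0639) ended the Nid2 call in Wnt4-deleted cells. So did the use of arrays 1 to 12 only (1.08, adjusted p = 0.152). The Nid2 effects of fraction in the 2 genotypes differed by 0.23 (95% interval -0.55 to 1.01, adjusted p = 1).

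Markers of several other cell types also varied among the CD24 low arrays, not all in the order of Fn1 and the nidogens. The 11 endothelial markers averaged 6.49, 9.14 and 8.86 on the Wnt4-deleted CD24 low arrays and 6.60, 8.02 and 8.80 on the WT CD24 low arrays, against 5.18 to 6.38 over all CD24 high arrays. Of these 11, 7 passed as higher in CD24 low in Wnt4-deleted cells and 5 in WT cells. The 10 measured fibroblast markers averaged 6.31, 8.62 and 7.03 on the Wnt4-deleted CD24 low arrays and 6.22, 8.97 and 6.54 on the WT CD24 low arrays, against 5.47 to 6.06 over all CD24 high arrays. For these, 2 of 10 passed in each genotype. Pdgfra, a defining fibroblast marker, had 8.12 on array 9 and 7.08 on array 11, and lay between 5.12 and 5.50 on the other CD24 low arrays. Of the CD24 low arrays, Fn1, Nid1 and Nid2 were each highest on array 11 and lowest on array 1. The 8 pericyte markers had the same highest and lowest arrays, with averages of 6.05, 7.30 and 6.14 on the Wnt4-deleted CD24 low arrays and 5.84, 6.88 and 6.05 on the WT CD24 low arrays, against 5.21 to 5.76 in CD24 high. Adipocyte markers (7 genes) averaged 5.29, 6.75 and 6.01 on the Wnt4-deleted CD24 low arrays and 5.51, 6.24 and 5.95 on the WT CD24 low arrays, against 5.11 to 5.69 in CD24 high, and were also highest on array 11. Immune markers (9 genes) averaged 4.80, 5.87 and 5.72 on the Wnt4-deleted CD24 low arrays and 4.92, 6.12 and 5.18 on the WT CD24 low arrays, against 4.37 to 4.59 in CD24 high, and were highest on array 9. The part of these cell types in the differences was not tested. Fn1 was also higher in CD24 low cells within each set of arrays, by 2.34 (arrays 1 to 4), 4.61 (arrays 9 to 12) and 3.45 (arrays 13 to 16) in Wnt4-deleted cells and by 1.53, 3.40 and 2.71 in WT cells. Over the 6 CD24 low arrays Sparc spanned 0.39 and Postn 0.35, and what other cell types add to their values was not tested.

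**Figure D2:**
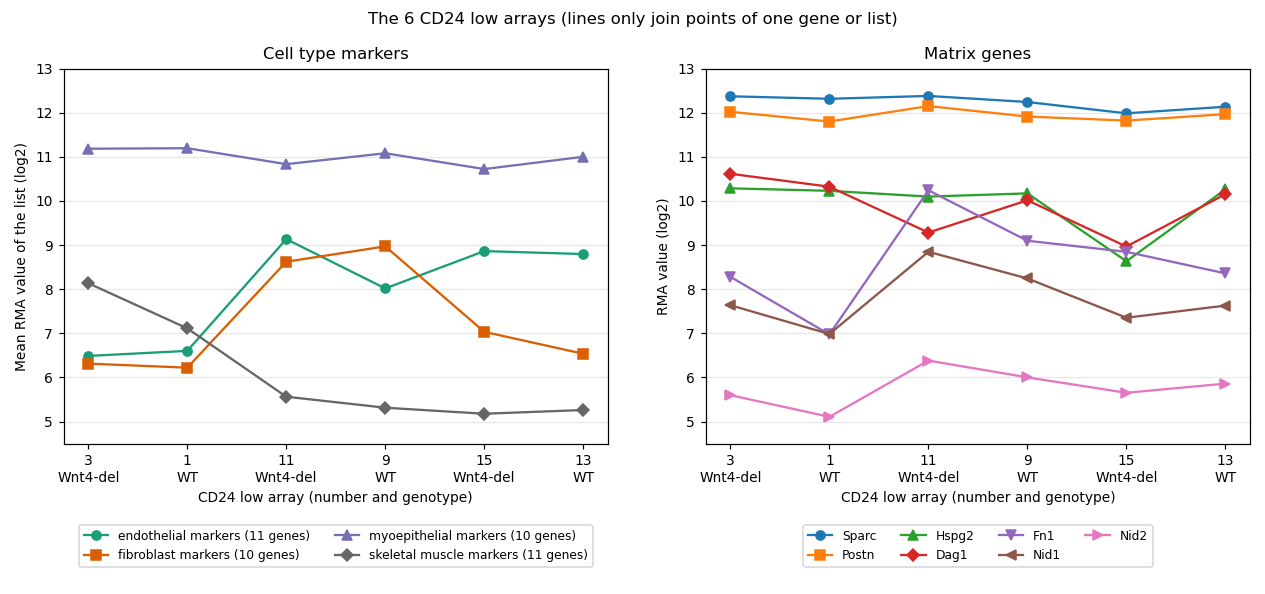
Values on the 6 CD24 low arrays, with the array number and genotype on the horizontal axis: the left side gives the average log2 RMA level of 4 marker lists and the right side the log2 RMA value of 7 of the genes. Fibroblast markers are highest on arrays 9 and 11, where Fn1 and Nid1 are also highest, endothelial markers are low on arrays 3 and 1, and myoepithelial markers stay between 10.72 and 11.20.

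Perlecan, agrin and dystroglycan form the link between heparan sulfate proteoglycans and the cell surface. Hspg2, which encodes perlecan, had 10.29, 10.10 and 8.63 in Wnt4-deleted CD24 low cells against 7.08, 7.09 and 6.58 in Wnt4-deleted CD24 high cells. In WT cells Hspg2 had 10.23, 10.17 and 10.26 in CD24 low against 6.86, 7.18 and 6.95 in CD24 high. Array 15 stands well below the other CD24 low arrays, which lie close together. The difference was 6.77-fold in Wnt4-deleted cells (2.76 ± 0.35, adjusted p = 0.00025) and 9.36-fold in WT cells (3.23 ± 0.35, adjusted p = 8.31e-05).

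Agrn encodes agrin, which binds dystroglycan and also acts at the neuromuscular junction. It had 9.09, 8.68 and 7.58 in Wnt4-deleted CD24 low cells against 7.54, 7.88 and 7.79 in Wnt4-deleted CD24 high cells, where array 15 falls inside the CD24 high range. In WT cells Agrn had 8.87, 8.69 and 8.90 in CD24 low against 7.56, 7.97 and 7.83 in CD24 high, with no overlap. Agrn differed by 0.71 ± 0.30 in Wnt4-deleted cells, which did not pass (adjusted p = 0.15), and by 1.03 ± 0.30 in WT cells, a 2.05-fold difference that passed (adjusted p = 0.0394). Without array 15 the Wnt4-deleted difference was 1.15 and passed (adjusted p = 0.00163), and without array 3 it was 0.39 (adjusted p = 0.386). With arrays 1 to 12 only it was 1.17 and passed (adjusted p = 0.0302). The WT call ended without any 1 of arrays 1, 2, 9, 10, 12, 13, 14 and 16, at adjusted p from 0.0537 to 0.117, and with arrays 9 to 16 only (0.89, adjusted p = 0.105).

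Dag1 encodes dystroglycan, the transmembrane receptor of the group. It had 10.62, 9.28 and 8.97 in Wnt4-deleted CD24 low cells against 9.13, 8.57 and 9.17 in Wnt4-deleted CD24 high cells, which overlap. In WT cells Dag1 had 10.32, 10.02 and 10.15 in CD24 low against 8.51, 9.02 and 9.26 in CD24 high, which do not. The difference was 0.67 ± 0.37 in Wnt4-deleted cells (adjusted p = 0.275) and 1.24 ± 0.37 in WT cells (2.35-fold, adjusted p = 0.041). Without array 3 the Wnt4-deleted difference was 0.17 (adjusted p = 0.712). Leaving out array 1, 2, 4, 9, 10, 13, 14 or 16 ended the WT call, at adjusted p from 0.0518 to 0.132. Dag1 was highest on CD24 low arrays 3 and 1, the arrays where the 11 skeletal muscle markers stood apart, with averages of 8.14, 5.56 and 5.18 on the Wnt4-deleted CD24 low arrays and 7.11, 5.32 and 5.26 on the WT CD24 low arrays, against 4.98 to 5.32 in CD24 high. Agrn, Tnc, Hspg2 and Hmcn1 also had their highest value on array 3. Of the 11 muscle markers 1 passed as higher in CD24 low in Wnt4-deleted cells and 0 in WT cells, and the part of muscle in these values was not tested. The fraction effects were not shown to differ between genotypes: the Wnt4-deleted minus WT difference of the effects was -0.32 for Agrn (95% interval -1.27 to 0.62) and -0.57 for Dag1 (95% interval -1.71 to 0.57), both with adjusted p = 1.

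The promoter stretches of Agrn and Dag1, the genes with the smallest fraction differences among those with a promoter entry, are shown for contrast with Postn and Sparc. They are chr4:156197489-156197738 and chr9:108263959-108264208 on GRCm38.p6, both on the minus strand, and the capitals mark GC boxes on either strand.
Agrn: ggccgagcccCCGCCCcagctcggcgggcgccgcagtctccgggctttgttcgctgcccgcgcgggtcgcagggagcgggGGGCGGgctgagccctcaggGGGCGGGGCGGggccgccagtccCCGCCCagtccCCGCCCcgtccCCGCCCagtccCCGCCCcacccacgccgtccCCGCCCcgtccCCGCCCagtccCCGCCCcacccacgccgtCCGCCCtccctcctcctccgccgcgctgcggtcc
Dag1: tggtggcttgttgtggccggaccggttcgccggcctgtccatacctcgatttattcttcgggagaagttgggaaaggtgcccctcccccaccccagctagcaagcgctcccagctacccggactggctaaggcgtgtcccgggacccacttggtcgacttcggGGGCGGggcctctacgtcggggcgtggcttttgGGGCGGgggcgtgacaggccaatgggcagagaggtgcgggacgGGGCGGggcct
The Agrn stretch holds 12 GC boxes, of which a pair overlaps by a base within the longest run of capitals, and 35 CpG pairs with 83.6% G and C, and the Dag1 stretch holds 3 GC boxes and 21 CpG pairs with 67.6%. GC boxes were also in the stretches of Hspg2 (5), Nid1 (1) and Tnc (1), so 5 of the 8 genes had one, against 32.7% of all promoters in the table. The ratio of observed to expected CpG was 0.85 for Agrn, 0.81 for Hspg2, 0.75 for Dag1, 0.64 for Tnc, 0.62 for Nid1, 0.51 for Hmcn1, 0.34 for Postn and 0.22 for Sparc, where the median of all promoters was 0.37. Postn and Sparc thus have the lowest ratios and the largest fraction differences, but Hspg2, with the second largest ratio, was also among the genes with large differences. TATAAA was found only in Tnc (12.4% of all promoters) and CATTCC in Nid1 and Hmcn1 (12.6%), while TGANTCA (6.8%) and CTTTGA (13.8%) were in none of the 8. These matches describe letters in a window and are not evidence of binding.

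Hmcn1 encodes hemicentin-1, a very large matrix protein of the fibulin family, and its difference between the fractions was the most precise of the 10. It had 9.39, 9.35 and 8.88 in Wnt4-deleted CD24 low cells against 5.91, 5.92 and 5.92 in Wnt4-deleted CD24 high cells. In WT cells it had 8.47, 8.78 and 8.44 in CD24 low against 5.60, 5.95 and 5.91 in CD24 high. The difference was 9.77-fold in Wnt4-deleted cells (3.29 ± 0.16, adjusted p = 3.73e-07) and 6.68-fold in WT cells (2.74 ± 0.16, adjusted p = 1.06e-06). The array carries 77 probesets for this gene, of which 1 stands for it in the test. All 77 were higher in CD24 low than in CD24 high in both genotypes with no overlap of arrays, by 1.54 to 6.77 in Wnt4-deleted cells (median 4.21) and by 1.05 to 5.72 in WT cells (median 3.75). The probeset in the test thus had a smaller difference than most, and probesets of 1 gene share the same RNA and are not independent.

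Deletion of Wnt4 was compared with WT within each fraction to see whether these genes changed with it. None of the 10 passed in CD24 low cells (limma, adjusted p = 1 for each, 1 with an unadjusted p under 0.05), where 0.00502% of all genes passed and 3.06% had an unadjusted p under 0.05. The differences ran between -0.55 and 0.98, with a median of 0.16 against -0.02 over all genes. The arrays of the genotypes did not overlap for 2 of the 10, Hmcn1 and Tnc, against 6.77% of all genes. In CD24 high cells none passed either (adjusted p = 1 for each, none with an unadjusted p under 0.05), where 0.00502% of all genes passed and 1.99% had an unadjusted p under 0.05. No gene of the 10 separated the genotypes there, against 7% of all genes, and the differences ran between -0.51 and 0.09.

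**Figure D3:**
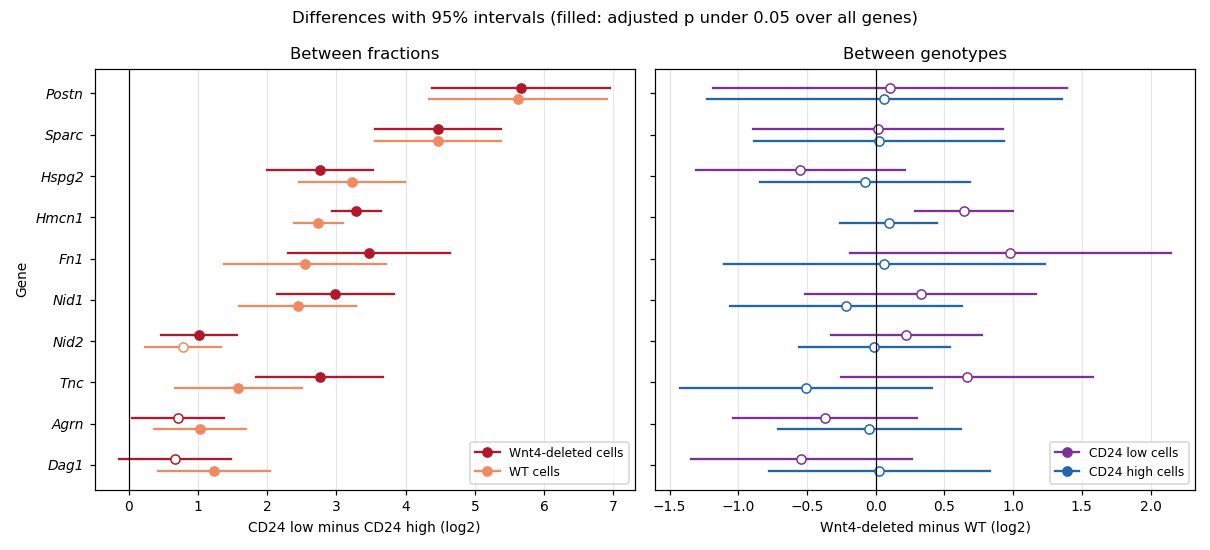
Differences of the 10 genes on the log2 scale with 95% intervals, CD24 low minus CD24 high on the left and Wnt4-deleted minus WT on the right, with filled points for an adjusted p under 0.05 over all genes. All fraction differences lie above 0 and no genotype difference is filled, while the interval of Hmcn1 in CD24 low cells is the only one on the right that does not reach 0.

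Hmcn1 had the narrowest interval, and its 3 Wnt4-deleted CD24 low arrays lay above the 3 WT CD24 low arrays. The difference was 0.64 (95% interval 0.29 to 0.996, unadjusted p = 0.00208 from limma, adjusted p = 1), and it did not pass over all genes. Within the sets of arrays it was 0.92 (arrays 1 to 4), 0.56 (arrays 9 to 12) and 0.44 (arrays 13 to 16), in the same direction in each. Markers of other cell types also varied among these CD24 low arrays, as given above, and their part in the Hmcn1 difference was not tested. All 77 probesets of Hmcn1 had the higher mean in Wnt4-deleted CD24 low cells, by 0.09 to 1.18 with a median of 0.51, and 41 of them had no overlap between the genotypes. The probesets read the same RNA of the same arrays, so these counts add no replication. The median level over the 77 probesets was 8.75, 8.65 and 8.40 on the Wnt4-deleted CD24 low arrays and 7.86, 8.17 and 8.16 on the WT CD24 low arrays. In CD24 high cells 27 probesets had the higher mean in Wnt4-deleted cells and 50 the lower, with a median difference of -0.06. The Wnt4 effect in CD24 low minus that in CD24 high was 0.55 (95% interval 0.05 to 1.05, unadjusted p = 0.0345 from limma, adjusted p = 1). In that comparison 0% of all genes passed, and 273 (1.37%) had an unadjusted p under 0.05.

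**Figure D4:**
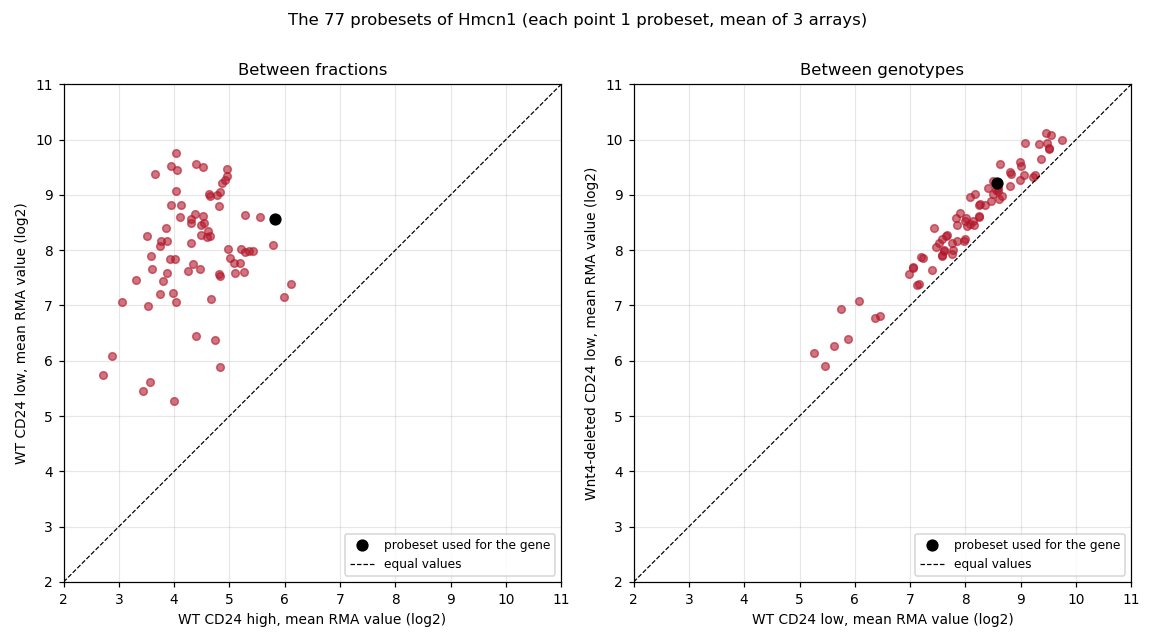
The 77 probesets of Hmcn1, each a point at the mean RMA value (log2) of 3 arrays, WT CD24 low against WT CD24 high on the left and Wnt4-deleted CD24 low against WT CD24 low on the right, with the probeset used for the gene in black. All points lie above the line of equal values on both sides, by 1.05 to 5.72 on the left and 0.09 to 1.18 on the right.

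Fn1 and Tnc had positive differences between the genotypes in CD24 low cells, with wide intervals. The Fn1 difference was 0.98 (95% interval -0.19 to 2.15, unadjusted p = 0.0922 from limma) with overlapping arrays, and the within-set differences were 1.30, 1.14 and 0.49. It was 0.39 without array 1 and 0.42 without array 11, and at most 1.46 with any other array left out. The Tnc difference was 0.66 (95% interval -0.26 to 1.58, unadjusted p = 0.141) without overlap, and its within-set differences were 1.27, 0.70 and 0.02. Without array 3 it was 0.32. Tnc and the skeletal muscle markers were both highest on array 3, where these markers averaged 8.14 against 5.18 to 7.11 on the other CD24 low arrays. Their part in the Tnc difference was not tested. In CD24 high cells Fn1 differed by 0.06 (95% interval -1.11 to 1.23) and Tnc by -0.51 (95% interval -1.43 to 0.41). The difference of the Wnt4 effects between the fractions was 0.92 for Fn1 (95% interval -0.73 to 2.57) and 1.17 for Tnc (95% interval -0.13 to 2.47), with adjusted p = 1 for both. On array 11, where Fn1 was highest, endothelial markers averaged 9.14 and pericyte markers 7.30. On arrays 3 and 1, the set with the largest Fn1 difference, endothelial markers averaged 6.49 and 6.60 and pericyte markers 6.05 and 5.84. The part of these cell types in the Fn1 difference was not tested.

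The proteoglycans and dystroglycan had negative differences between the genotypes in CD24 low cells, and their size depended on arrays 15 and 3. Hspg2 differed by -0.55 (95% interval -1.31 to 0.22), Agrn by -0.37 (95% interval -1.04 to 0.30) and Dag1 by -0.54 (95% interval -1.35 to 0.26). Without array 15 these became -0.03 for Hspg2, 0.07 for Agrn and -0.21 for Dag1, and without array 3 they became -0.85 for Hspg2, -0.69 for Agrn and -1.04 for Dag1. By sets of arrays the difference was 0.06, -0.07 and -1.63 for Hspg2, 0.22, -0.01 and -1.32 for Agrn, and 0.29, -0.73 and -1.19 for Dag1. On array 15 the myoepithelial markers averaged 10.72, the lowest of the 6 CD24 low arrays, though array 11 was near it at 10.83. Endothelial markers averaged 8.86 on array 15, which lies between 8.80 on array 13 and 9.14 on array 11. The part of these cell types in the low values on array 15 was not tested.

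Sparc, Postn and the nidogens had differences nearer to 0 between the genotypes in CD24 low cells. The differences were 0.02 for Sparc (95% interval -0.89 to 0.93), 0.10 for Postn (95% interval -1.19 to 1.39), 0.33 for Nid1 (95% interval -0.52 to 1.17) and 0.22 for Nid2 (95% interval -0.33 to 0.77). Each interval gives the differences that 3 arrays a group leave compatible with the values. It is not a limit of detection, since a call also needs the adjustment over all genes. Averaged over both fractions none of the 10 passed (limma, adjusted p under 0.05), against 0.00502% of all genes. Of the 10 genes 1 had an unadjusted p under 0.05, against 3.58% of all genes. The averaged difference was 0.37 for Hmcn1 (95% interval 0.12 to 0.62, unadjusted p = 0.00781 from limma, adjusted p = 0.994), 0.52 for Fn1 (95% interval -0.31 to 1.35), 0.08 for Tnc (95% interval -0.57 to 0.72) and -0.31 for Hspg2 (95% interval -0.85 to 0.23).

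Genes of the same pathways were counted from 7 lists, beside the same 8.22% of all genes passing as higher in CD24 low in Wnt4-deleted cells and 8.21% in WT cells. Among laminin and basement membrane collagen chains, the networks that nidogens join, 10 of 18 were higher in CD24 low in Wnt4-deleted cells and 11 in WT cells, and none was lower. The median difference of that list was 1.52 in Wnt4-deleted cells and 1.36 in WT cells. In WT cells the largest were Lama1 (2.86), Lamb1 (2.77), Lamb3 (2.64) and Col4a1 (2.37), which encode laminin chains and a collagen IV chain. Of 17 other basement membrane glycoproteins, 11 were higher and 1 lower in CD24 low in Wnt4-deleted cells, and 9 were higher in WT cells. In WT cells Fbln2 (3.04), Fbln7 (2.40) and Fbln5 (1.97), which encode fibulins, and Vwa1 (2.32), which encodes a perlecan-binding protein, led this list. The 1 lower gene was Npnt at -0.83, named after its value was seen, which encodes the integrin ligand nephronectin. Of 12 relatives of the 10 genes, 4 were higher in Wnt4-deleted cells and 2 in WT cells, where Fstl1 stood at 4.93 and Spock2 at 2.49, both relatives of Sparc. The other 2 in Wnt4-deleted cells, named after their values were seen, were Sparcl1 at 3.68 and Spock3 at 0.43.

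Receptors and modifiers of these proteins were counted in the same way. Of 16 genes for fibronectin receptors and fibril assembly, 7 were higher and 1 lower in CD24 low in each genotype. In WT cells Tns1, for the fibrillar adhesion protein tensin-1, was higher by 3.54, the integrin gene Itga9 by 3.31, the integrin-linked kinase gene Ilk by 1.54, and Itga5, for the fibronectin receptor's alpha chain, by 1.44. Itgb6, an integrin gene of epithelial cells, was lower, at -1.37 in Wnt4-deleted cells and -1.87 in WT cells. Of 14 genes for the dystrophin complex and agrin receptors, 8 were higher in Wnt4-deleted cells and 5 in WT cells, with Sgcb at 1.72, Sspn at 1.29, Lrp4, an agrin receptor, at 1.23, Sntb2 at 0.99 and, named after its value was seen, the utrophin gene Utrn at 0.86 in WT cells. Of 12 enzymes for the laminin-binding sugars of dystroglycan, none was higher in CD24 low in Wnt4-deleted cells and 2 were in WT cells, B4gat1 at 0.81 and Pomt2 at 0.70, and 1 was lower in each genotype, Dpm2, at -0.67 in Wnt4-deleted cells and -0.75 in WT cells.

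Matrix proteases and remodelling enzymes cut or trim these proteins. Of 22 such genes, 12 were higher and 1 lower in CD24 low in Wnt4-deleted cells, and 13 were higher and 1 lower in WT cells. In WT cells Mmp2, for a gelatinase that cleaves collagen IV, was higher by 4.60, Adamts4, for a proteoglycanase, by 3.51, Adamts18, for the secreted protease in the study's title, by 3.40, and Sulf1, for a heparan sulfate 6-O-endosulfatase, by 3.37. Its paralogue Sulf2 was lower, at -2.01 in Wnt4-deleted cells and -2.41 in WT cells. No gene of the 7 lists passed in a comparison of genotypes.

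The genes whose values ran most like each of the 10 over the 12 arrays are given as a description, since the fractions set most of the variation. Pearson's r of Sparc was 0.997 with Vim, for vimentin, and 0.994 with Bgn, for the small proteoglycan biglycan, and that of Postn was 0.993 with Acta2, for smooth muscle actin, and 0.992 with Myl9, for a myosin light chain. Hspg2 ran with Cavin1 (0.994), for a caveolar coat protein, and with Pxn (0.992), for the adhesion protein paxillin. Fn1 and Nid2 were among each other's nearest (0.974), and Nid1 was nearest to Gucy1b1 (0.984), for a subunit of soluble guanylate cyclase. Agrn was nearest to Ptk7 (0.972), Dag1 to the amino acid transporter gene Slc7a5 (0.961), Tnc to the laminin gene Lama4 (0.960) and Hmcn1 to Gprin3 (0.991). Among the 10 themselves the lowest r was that of Dag1 with Nid2 (0.457) and the highest was that of Sparc with Postn (0.976).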

How the data were processed

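RNA was extracted with Trizol, amplified and biotin-labelled with Ovation kits and hybridised to Affymetrix arrays. The deposited values are on the log2 scale: the authors ran RMA (Affymetrix Expression Console 1.1.2800, per the labels), which corrects background, normalises by quantiles and summarises probes. RMA compresses differences of dim probesets. The genome build is not given in the sources used here. Of 35556 probesets, 21789 had 1 gene symbol in the platform annotation, 1621 had several and 12146 none. Per symbol the probeset with the highest mean was used, which left 19938 genes. Group means were fitted to all 12 arrays with limma 3.58.1 (R 4.3.3, lmFit and eBayes, 8 residual degrees of freedom), two-sided, with Benjamini-Hochberg adjustment over all genes and a threshold of 0.05. The fit was tested on simulated data with independent noise for each gene, so shifts shared by a whole array were not covered. Arrays have no read depth, so their number limits precision, and array medians lay between 5.64 and 5.82. The 10 genes and the lists were chosen with earlier results of these data known. Named in the text are the 10 genes, up to 4 genes of each list with the largest change in its main direction in WT cells and up to 2 the other way, the nearest genes by correlation, and markers of the sorted cells. Alternatives varied probeset choice, centring, normalisation, filter, array weights, variance prior, threshold, array sets and each array left out.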

Additional observations from a re-analysis of the deposited data

How the results depend on the processing

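Counts of the 10 genes passing between fractions were 7 to 9 in Wnt4-deleted cells and 6 to 10 in WT cells with each array left out, and 0 in every comparison of genotypes. With arrays 1 to 12 only, an alternative chosen after seeing the data, 5 of 10 passed in WT cells. With arrays 1 to 4 and 13 to 16 only, also chosen after seeing the data, the counts stayed within 1.5 times. No difference between fractions changed direction under any alternative, and of 478 such values 35 lost the call and 8 gained it, the cause not tested. Single array sets were not among these alternatives. In Wnt4-deleted cells the Agrn difference was 1.54 (arrays 1 to 4), 0.80 (arrays 9 to 12) and -0.22 (arrays 13 to 16). That of Dag1 was 1.49, 0.72 and -0.20, so both were reversed in the last set. In WT cells median centring took Agrn to adjusted p = 0.0543 and Dag1 to 0.0565, and Nid2 passed with array weights (0.0128), with the array sets as a fixed block (0.0158) or a random block (0.0433), and with arrays 9 to 16 only (0.0282), where Agrn (0.105) and Tnc (0.0804) lost their calls. With arrays 1 to 4 and 13 to 16 Agrn (0.191) and Dag1 (0.197) lost theirs in WT cells and Nid2 (0.118) in Wnt4-deleted cells.

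Over all genes, the calls between fractions in WT cells were 5215 with array weights, 1843 at an adjusted p under 0.01, 1374 with arrays 1 to 4 and 13 to 16 and 1339 with arrays 1 to 12, and 2282 to 3526 with each array left out, against 3218. In Wnt4-deleted cells they were 1854 at an adjusted p under 0.01, 1405 with arrays 1 to 4 and 13 to 16, 1350 with arrays 1 to 12 and 2156 without array 16, the lowest of those with an array left out, against 3278. Between genotypes 1 gene passed in each fraction. In CD24 low cells the count was 0 with the compared groups only, with arrays 9 to 16 or with arrays 1 to 4 and 13 to 16, and 2 without array 3. In CD24 high cells and averaged over fractions it was 0 with arrays 1 to 4 and 13 to 16, and in CD24 high cells 0 with arrays 9 to 16.

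Between genotypes none of 730 values of the 10 genes under the alternatives passed, and 57 changed sign, all of differences that had not passed, so their direction is not settled. In CD24 low cells Sparc became -0.005 with arrays 9 to 16 and -0.046 with arrays 1 to 4 and 13 to 16, and Agrn 0.105 with arrays 1 to 12. In CD24 high cells Hmcn1 became -0.051 with the mean of its probesets and -0.01 with arrays 9 to 16. Nid2 became 0.017 with median centring, 0.054 with a second quantile normalisation, 0.028 with arrays 1 to 4 and 13 to 16 and 0.004 with arrays 1 to 12. Dag1 became -0.009 with a second quantile normalisation, 0.00 with array weights and -0.27 with arrays 9 to 16. With array weights Fn1 became -0.16, Sparc -0.72 and Postn -0.725. With arrays 9 to 16 Fn1 became -0.16, Nid1 0.027, Sparc -0.18 and Postn -0.74. Sparc became -0.033 with arrays 1 to 4 and 13 to 16, and Hspg2 0.065 with arrays 1 to 12. Averaged over fractions Tnc became -0.11 with array weights and -0.17 with arrays 9 to 16, and Hspg2 0.029 with arrays 1 to 12. The difference of the Wnt4 effects for Agrn became 0.16 with arrays 1 to 12.

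With each array left out, the genotype difference in CD24 low cells ran between -0.12 and 0.64 for Nid1, -0.053 and 0.39 for Nid2, -0.69 and 0.066 for Agrn, and -0.051 and 0.15 for Sparc. In CD24 high cells it ran between -0.081 and 0.19 for Fn1, -0.073 and 0.078 for Nid2, -0.17 and 0.089 for Hspg2, -0.16 and 0.049 for Agrn, -0.18 and 0.22 for Dag1, -0.40 and 0.53 for Sparc, -0.75 and 0.62 for Postn, and -0.015 and 0.16 for Hmcn1. Averaged over fractions it ran between -0.15 and 0.30 for Tnc, and the difference of the Wnt4 effects between -0.78 and 0.052 for Hspg2, -0.64 and 0.11 for Agrn, and -0.043 and 0.40 for Nid2. The averaged comparison and the difference of effects have no value with the compared groups only, and Nid2 has none under the filter on low levels, which 9 of the 10 genes passed. The labels give the groups no shared replicate numbers, so no samples were paired beyond the array sets used as blocks.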
